A study of Mus musculus with 11 samples.

Results

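Histone genes were followed in sorted germinal center B cells from spleens of mice that lacked the acetyltransferase CREBBP, its relative EP300 or neither. The set was chosen by symbol and level: 86 rows of the table of 48593 genes carried a histone gene symbol, and the 70 with a mean normalized count of at least 10 over all 11 libraries were taken. Of these, 59 were replication-dependent (5 of type H1, 14 of H2A, 16 of H2B, 11 of H3 and 13 of H4), and 11 were variant genes (2 of H1, 6 of H2A and 3 of H3). The mean used for the choice fixes the lower end of the levels given below, so the levels are a description without a test. Just inside the limit were Hist1h2aj at 10.8, Hist2h2aa1 at 12.0 and Hist1h2ag at 13.2, and just outside were Hist2h2ab at 8.94, Hist1h2ah at 8.65 and Hist2h3c2 at 7.93. Of the 16 rows left out, 5 held no read in any library.

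RNA was sequenced from cells positive for B220, PNA and CD95, sorted 12 days after the mice had received sheep red blood cells. The 5 WT mice were Crebbp+/+;Ep300+/+;Cg1cre/+, the 3 Crebbp-KO mice Crebbp fl/fl;Ep300+/+;Cg1cre/+ and the 3 Ep300-KO mice Crebbp+/+;Ep300 fl/fl;Cg1cre/+. Every animal, WT included, thus carried 1 copy of the Cre, which is driven from the Cg1 (IgG1 constant region) locus and acts in germinal center B cells once they are activated. The WT mice came from Crebbp crosses and none was labelled as a littermate of an Ep300-KO mouse, so cross and loss of Ep300 cannot be told apart. Age, sex, litter and batch are not given in the sources used here, and p-values measure the spread between these numbered libraries. Each library was taken as 1 mouse by its label, which is uncertain for p300-KO_18, given its mixed sex-linked transcripts below. Libraries keep the labelled names, in which Crebbp-KO libraries are called CBP-KO and Ep300-KO libraries p300-KO.

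Histones package DNA into nucleosomes, whose core holds H2A, H2B, H3 and H4, while H1 binds the linker DNA between them. Replication-dependent histone genes lie in clusters, are transcribed mainly in S phase and, unlike other coding genes, end their mRNAs at a short hairpin in place of a poly(A) tail. Most variant histone genes lie outside these clusters, are expressed through the cell cycle and make polyadenylated mRNAs whose proteins mark transcribed, damaged or silent chromatin. CREBBP and EP300 are coactivators that acetylate histone tails. Germinal center B cells divide fast, so they make histone mRNA at a high rate. The library kit named by the labels selects poly(A) RNA as a rule, and the counts of replication-dependent genes therefore hold only the part of their mRNA that carries a tail or escaped that selection.

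Class was set by gene symbol alone, with symbols that start with Hist taken as replication-dependent and the others as variant, and not by the hairpin. A 3′ hairpin of the histone type was found by pattern in an annotated transcript of 40 of the 59 replication-dependent genes (GENCODE annotation of GRCm38). The pattern was 16 bases on the transcript strand that start with GG and end with CC. They pair over the outer 6 bases and hold TTT at the start of the loop. The same pattern occurred in 1 of the 11 variant genes, H2afx, and in 27 of 21834 other coding genes (0.124%). The forms shown are those that differ between members, with the 6 paired bases of each side of the stem in capitals and the 4 bases of the loop in lower case, 5′ to 3′, as DNA.
Hist1h1c: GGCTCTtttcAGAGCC
Hist3h2ba: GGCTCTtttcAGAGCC
Hist1h3e: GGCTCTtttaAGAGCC
Hist2h2ac: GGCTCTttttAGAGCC
Hist1h4d: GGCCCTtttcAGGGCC
Hist1h4b: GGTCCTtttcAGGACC
Hist1h4i: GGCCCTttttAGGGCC
H2afx: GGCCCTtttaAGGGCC
The form of Hist1h1c was the commonest, carried by 23 genes of types H1, H2A, H2B and H3, and by no H4 gene. The 11 H4 genes with a hairpin used other stems: 7 had the form of Hist1h4d, Hist1h4b and Hist1h4j shared another, and Hist1h4i and Hist2h4 had the form with a loop of T only. A match is a description of the annotated transcript, and the absence of the pattern in the other 19 replication-dependent genes says only that these letters are not in their annotated exons. In 20 genes the annotated transcript ran on for 100 bases or more past the hairpin, in 20 it ended within fewer than 100 bases.

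Promoters were read from RefSeq (GRCm38.p6) as the 250 bases before the start, and 62 members had one, 53 replication-dependent and 9 variant. The letters CCAAT, searched on both strands, stood in 43 of 53 replication-dependent promoters (81.1%), in 5 of 9 variant promoters and in 33.8% of all 32851 promoters of this length. All 13 H2A, 14 H2B and 5 H1 promoters held CCAAT, against 3 of 12 of H4. Several H2A and H2B genes start close together on opposite strands. Their promoters overlap, so a site in the shared DNA counts for both genes. Hist1h2ag (chr13:22042950-22043199) and Hist1h2bj (chr13:22042948-22043197) are such a pair. The letters TATAAA stood in 49.1%, 1 of 9 and 12.4%, the octamer ATGCAAAT in 18.9%, 1 of 9 and 1.60%, and TGACG in 39.6%, 1 of 9 and 17.8%. The last of these is part of TGACGTCA, the cAMP response element from which CREBBP has its name, and TGACGTCA stood in 7.55%, 0 of 9 and 1.55%. The TGACGTCA of Hist1h2ag and that of Hist1h2bj are the same site, counted for both. The promoters of the only replication-dependent genes called below, Hist1h4i and Hist3h2ba, are shown with these motifs in capitals.
Hist1h4i, chr13:22041363-22041612, minus strand: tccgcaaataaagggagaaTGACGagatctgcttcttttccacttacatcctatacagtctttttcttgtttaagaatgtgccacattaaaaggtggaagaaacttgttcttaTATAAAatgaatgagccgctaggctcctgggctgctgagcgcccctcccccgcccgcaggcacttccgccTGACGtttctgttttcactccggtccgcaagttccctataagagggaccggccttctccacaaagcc
Hist3h2ba, chr11:58948661-58948910, plus strand: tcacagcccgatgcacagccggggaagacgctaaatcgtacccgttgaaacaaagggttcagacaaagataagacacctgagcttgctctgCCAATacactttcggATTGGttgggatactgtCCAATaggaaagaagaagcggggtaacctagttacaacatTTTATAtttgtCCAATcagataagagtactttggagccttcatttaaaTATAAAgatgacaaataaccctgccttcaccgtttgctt
Hist1h4i held 1 TATAAA and 2 TGACG and no CCAAT, and Hist3h2ba held 4 CCAAT and 2 TATAAA on one strand or the other and no TGACG. A match is no evidence of binding, which was not measured here.

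Depth, recovered from the normalized counts as whole reads, ran from 53550726 to 132861266 reads per library. Ep300 stood at 21268 ± 1276 (SD, n = 5) in WT, 23934 ± 1584 (n = 3) in Crebbp-KO and 14466 ± 600.4 (n = 3) in Ep300-KO, where every library was below every WT library. Crebbp stood at 8866 ± 742.6 in WT and 8247 ± 611.7 in Crebbp-KO, and the groups overlapped, so the gene-wide count, which covers exons outside a deleted part, does not check the Crebbp-KO label. All 12 germinal center B cell markers were high, S1pr2 for example at 36464 or more in each library. Of 12 T cell markers the summed level was 13708 to 16974 in WT, 8034 to 8925 in Crebbp-KO and 9156 to 10162 in Ep300-KO, almost all of it Lck and Cd2, while Cd3e was at 0 in 9 libraries. The summed level of 15 macrophage markers was 3546 to 9609 in WT, with the highest in WT_46, 1977 to 2907 in Crebbp-KO and 2430 to 3294 in Ep300-KO. For 9 plasma cell markers it was 77167 to 94674 in WT, 82541 to 96800 in Crebbp-KO and 97771 to 111988 in Ep300-KO. Every Ep300-KO library thus lay above every other library for these. p300-KO_18 held both Xist (98751) and Y-linked transcripts (9852 in sum), which no other library did at such levels, so it may not hold the cells of a single mouse. Of the other libraries, WT_41, WT_288, p300-KO_287 and CBP-KO_1 held more Y-linked RNA than Xist, and the rest more Xist. Each group thus held libraries of both kinds, and the sex term used below was set by this difference. The part of these marker levels in the results on histone genes was not tested, and values without p300-KO_18 are given beside the calls that change when it is left out. In bulk samples, fewer cells that express a gene and less of its RNA per cell cannot be told apart.

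The table held variant histone mRNA almost to the exclusion of replication-dependent mRNA. In WT the 11 variant genes took 0.259% of all normalized counts and the 59 replication-dependent genes 0.00793%. The sum of the variant genes was 214318 in WT_288, 189529 in WT_46, 193939 in WT_41, 199411 in WT_7 and 208035 in WT_4, and that of the replication-dependent genes was 6033, 6261, 6214, 6325 and 5949 in the same order. In single libraries of WT the variant sum was thus 30.3 to 35.5 times the replication-dependent one. Per kilobase of exon, the scale that allows genes to be compared, the median WT level was 5705 for variants (range 28.8 to 25635) and 77.0 for replication-dependent genes (8.48 to 1560). How much of this gap comes from poly(A) selection cannot be told apart from a difference in mRNA.

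**Figure D1:**
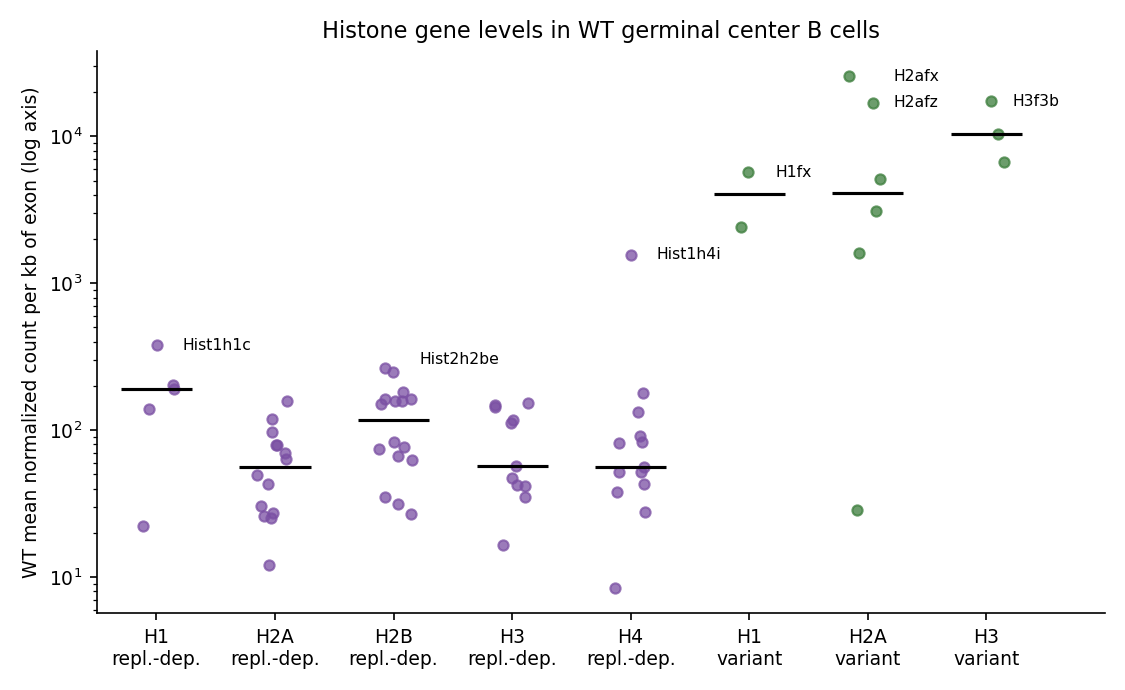
WT mean normalized count per kilobase of exon (log axis) for each of the 70 histone genes, by type, for replication-dependent (repl.-dep., purple) and variant (green) genes, with the median of each set as a bar. All variant genes but H2afy3 lie at 1618 or more, and Hist1h4i, at 1560, is the replication-dependent gene nearest to them.

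Among the variants the highest level per kilobase in WT was that of H2afx (25635 ± 1783, SD, n = 5), which encodes H2A.X, the histone phosphorylated at DNA breaks. It was followed by H3f3b at 17368 ± 1539 and H2afz at 16954 ± 1102. As counts not scaled by exon length, H3f3b (51687 ± 4580) stood above H2afx (35479 ± 2468). H3f3a (36486 ± 4286) did not differ from H2afx beyond the spread. H3f3b and H3f3a (10413 ± 1223) encode the same protein, H3.3, which is deposited at transcribed genes outside S phase, and H2afz encodes H2A.Z, found next to transcription starts. The neighbours H3f3b and H2afz in this order do not differ beyond their spread. H1fx, a linker histone variant, stood at 5705 ± 1030 and H2afv, the second H2A.Z gene, at 5112 ± 51.0, again within the spread. H2afy (macroH2A1, a variant of silent chromatin) followed at 3123 ± 142.1, H1f0, a linker histone of resting cells, at 2429 ± 353.2 and H2afj at 1618 ± 121.9. The annotation lists 3 members as pseudogenes (H3f3c, H2afy3 and Hist1h2aj). Of the 50-base windows of H3f3c only 26.2% occurred once among all annotated transcripts, so its value of 6665 per kilobase is uncertain.

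Hist1h4i, an H4 gene of the chromosome 13 cluster, was far above the other replication-dependent genes at 1560 ± 76.5 per kilobase in WT. The next were the H1 gene Hist1h1c at 378.6 ± 37.0 and the H2B genes Hist2h2be at 264.8 ± 36.6 and Hist3h2ba at 247.0 ± 23.0. By type the median per kilobase was 190.2 for H1, 117.3 for H2B, 56.9 for H3, 56.4 for H2A and 56.3 for H4, on the same scale. Genes whose transcript runs 100 bases or more past the hairpin had a median of 52.0 per kilobase of their longer exons, those with fewer bases 76.6 and those without the pattern 112.7. As counts not scaled by exon length, the medians were 83.0, 34.7 and 55.5, so the order of these sets depends on the annotated length. The spread between WT libraries was wider for this class, with a median coefficient of variation of 27.1% against 8.86% for variants. Of all 50-base windows of a replication-dependent gene's exons a median of 50.3% occurred once among all annotated transcripts, and 29 of 59 genes had under 50%. Windows inside an overlapping annotated gene also count as not unique, as in Hist2h3c1, whose 1825 exon bases all overlap a predicted gene. Reads of near-identical copies or of overlapping genes may thus be shared, and the values of single genes are uncertain. For variants the median was 90.3%.

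A few histone genes were called lower in Ep300-KO, most of them variants, and none higher. In Ep300-KO against WT, 6 of the 70 genes fell and none rose (limma, adjusted p below 0.05). Of all 16515 tested genes 6.09% fell, which is close to the share of the 70, and 965 rose. The 6 were 4 of 11 variants, H1fx, H2afv, H2afx and H2afj, and 2 of 59 replication-dependent genes, Hist1h4i and Hist3h2ba. The variants had the higher counts, with a median WT mean of 8347 against 51.7. In a fit limited to genes with a mean of at least 50, 14.8% of all genes were called in either direction, against 11.9% here. The part of the count level in these calls was not tested. The median log2 fold change was -0.17 over the variants, of which 10 of 11 were lower, and -0.02 over the replication-dependent genes, of which 30 were lower and 29 higher, beside -0.01 over all tested genes. All Ep300-KO libraries lay below all WT libraries for 8 of 70 genes, 5 of them variants, against 9.4% of all tested genes, so for the whole set this share is close to the background. They lay above all WT libraries for 1 of 70, the replication-dependent Hist1h2bc, beside 1591 of all 16515 tested genes.

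**Figure D2:**
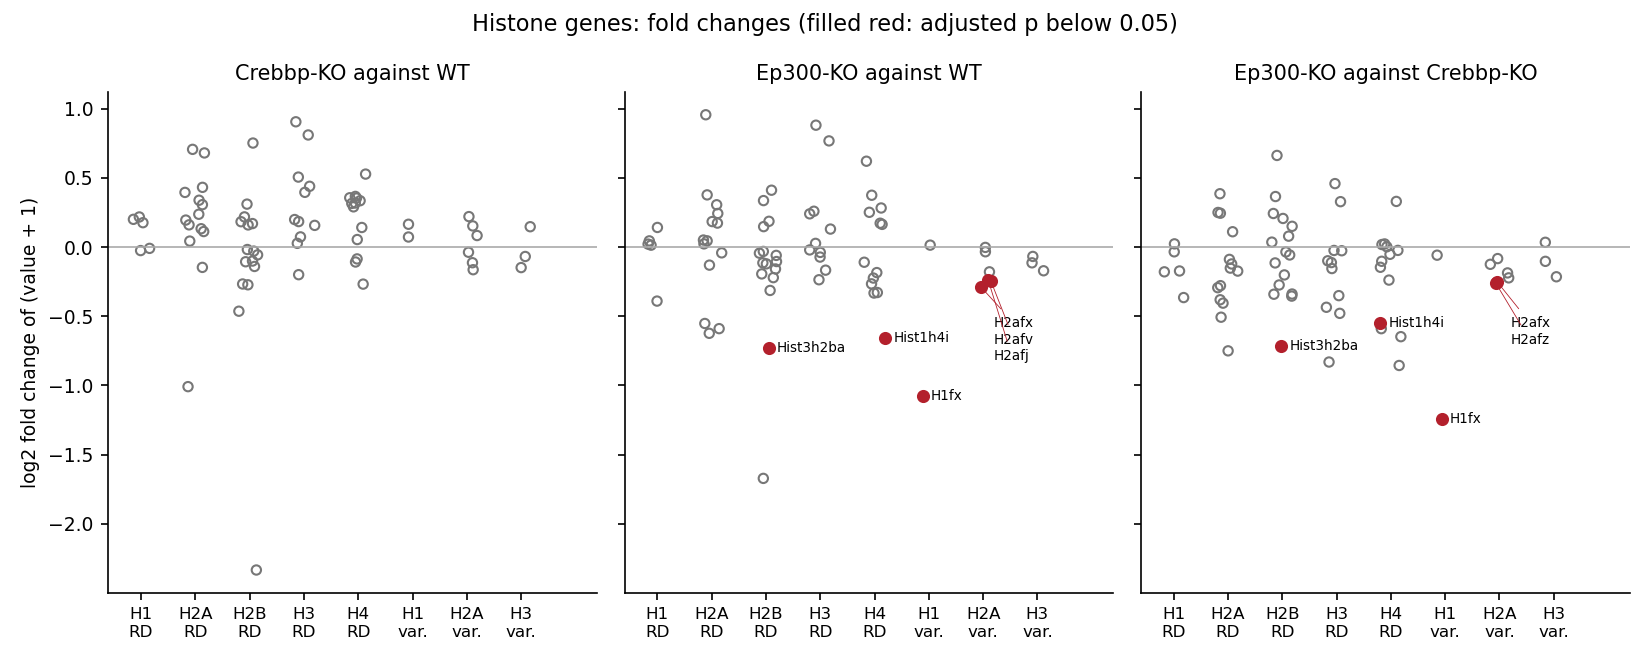
Log2 fold change of (value + 1) of each of the 70 histone genes by type (RD, replication-dependent; var., variant) in the 3 comparisons, with genes at an adjusted p below 0.05 (limma) filled and named. The left panel holds no filled point, the middle one 6 and the right one 5, all below 0.

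H1fx showed the largest change among the called members. Its normalized count was 6233 in WT_288, 8879 in WT_46, 7434 in WT_41, 5685 in WT_7 and 6486 in WT_4. The Crebbp-KO libraries held 9729 (CBP-KO_1), 6429 (CBP-KO_53) and 7265 (CBP-KO_55), and the Ep300-KO libraries 3650 (p300-KO_18), 3819 (p300-KO_287) and 2468 (p300-KO_289), so every Ep300-KO library lay below every other library. The log2 fold change was -1.08 (SE 0.17) against WT with an adjusted p of 0.00195 in limma, and -1.24 against Crebbp-KO with an adjusted p of 0.00211. Between Crebbp-KO and WT it was 0.16 (limma, adjusted p 0.644), with a 95% interval of -0.21 to 0.54. H1fx is a gene of 1 exon at chr6:87980421-87981637 on the minus strand. Exons of 2 predicted genes overlap it, and without strand their reads cannot be told apart from its own, though the table has no row for them. The other linker variant, H1f0, did not pass the test, with 4992 ± 725.7 in WT and 5020 ± 602.0 in Ep300-KO.

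The H2A variants shifted less but with small spread. H2afv was 8279 in WT_288, 8455 in WT_46, 8254 in WT_41, 8350 in WT_7 and 8399 in WT_4, against 7169, 6961 and 6972 in p300-KO_18, p300-KO_287 and p300-KO_289. It thus had the tightest WT group of the called genes, and its log2 fold change was -0.25 (SE 0.05) with an adjusted p of 0.00778 in limma. In Crebbp-KO it stood at 8128, 7205 and 7065, also below every WT library, with a log2 fold change of -0.16 that missed the threshold (limma, adjusted p 0.0693), and the direct comparison of the knockouts did not pass either (adjusted p 0.401). H2afv and the low Hist1h2bp are the members for which all libraries of both knockouts lay below WT, but the 2 comparisons share the WT libraries.

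H2afx was 39756 in WT_288, 34312 in WT_46, 34933 in WT_41, 33448 in WT_7 and 34948 in WT_4. In p300-KO_18, p300-KO_287 and p300-KO_289 it was 27843, 29932 and 29343, below all WT and all Crebbp-KO libraries (37538, 33505 and 32660). The log2 fold change was -0.29 (SE 0.06) against WT (limma, adjusted p 0.0127) and -0.25 against Crebbp-KO (adjusted p 0.0483), and without p300-KO_18 the adjusted p values were 0.0612 and 0.148. H2afx, at chr9:44334694-44336077, is the variant whose annotated transcript holds the hairpin shown above, followed by 822 more bases. Exons of a predicted gene overlap it.

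H2afz differed between the knockouts. It was 31282, 30879 and 33434 in CBP-KO_1, CBP-KO_53 and CBP-KO_55, and 27303, 25182 and 27219 in p300-KO_18, p300-KO_287 and p300-KO_289. The log2 fold change of Ep300-KO against Crebbp-KO was -0.26 (limma, adjusted p 0.0279), or -0.28 with an adjusted p of 0.0560 without p300-KO_18. Against WT (30110 ± 1957) it was -0.18 with an adjusted p of 0.0709, although all Ep300-KO libraries lay below all WT ones. H2afj stood at 2963 ± 223.1 in WT and 2510 ± 154.8 in Ep300-KO, with -0.24 on the log2 scale and an adjusted p of 0.0459 (limma), but that call held in only 8 of 23 other settings, with an adjusted p of up to 0.175, and was lost without p300-KO_18 (adjusted p 0.0600). H2afy did not pass limma's test in any comparison, with 21266 ± 967.6 in WT, 23635 ± 942.2 in Crebbp-KO and 20781 ± 1342 in Ep300-KO, although every Crebbp-KO library lay above every WT library.

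**Figure D3:**
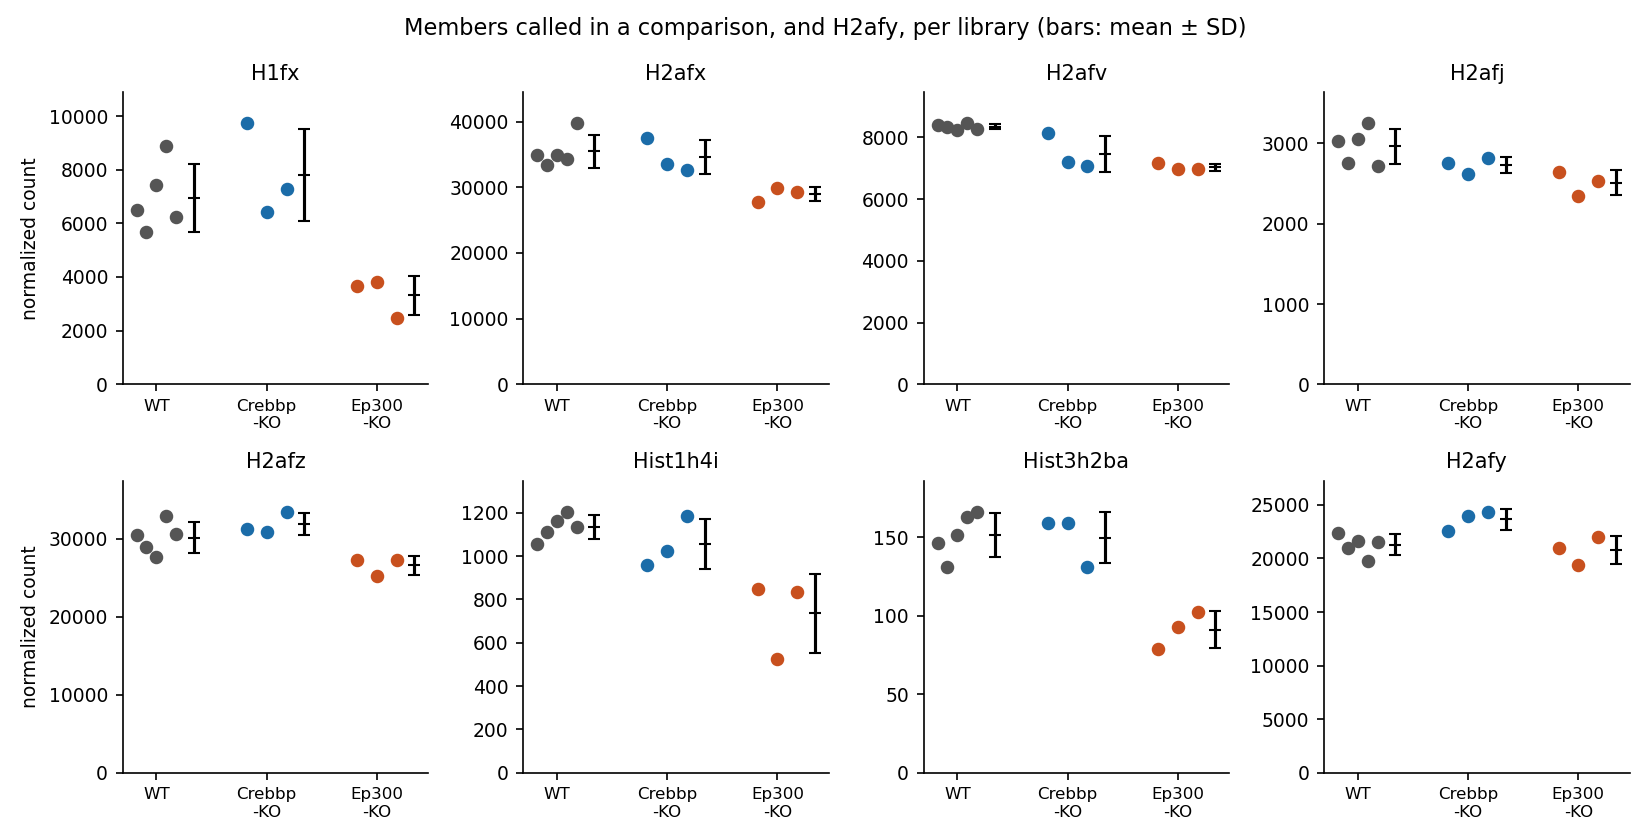
Normalized count per library of the 7 histone genes called in a comparison and of H2afy, with mean ± SD of each group as bars (WT n = 5, Crebbp-KO n = 3, Ep300-KO n = 3). The Ep300-KO points of the first 7 panels lie below all WT points, by most in H1fx, Hist1h4i and Hist3h2ba.

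The H3 variants, which took 0.117% of all normalized counts in WT, did not pass the test. H3f3b stood at 51687 ± 4580 in WT, 57163 ± 4384 in Crebbp-KO and 49198 ± 2383 in Ep300-KO, and H3f3a at 36486 ± 4286, 34673 ± 2853 and 32229 ± 1563. In Ep300-KO against WT the 95% intervals of the log2 fold change were -0.23 to 0.09 and -0.37 to 0.03. The sum of all variant genes was 176501, 177920 and 180307 in p300-KO_18, p300-KO_287 and p300-KO_289, below every WT library and 88.7% of the WT mean. By type it was 69.8% for H1, 87.5% for H2A and 92.3% for H3. The sum in Crebbp-KO was 103.3% of WT, from 200887 to 220433, and overlapped with WT.

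Of the replication-dependent genes, Hist1h4i was 1136 in WT_288, 1204 in WT_46, 1164 in WT_41, 1111 in WT_7 and 1056 in WT_4. It was 959.4, 1023 and 1183 in CBP-KO_1, CBP-KO_53 and CBP-KO_55, and 847.6, 526.6 and 834.3 in p300-KO_18, p300-KO_287 and p300-KO_289. All Ep300-KO libraries lay below all others, p300-KO_287 by most. The log2 fold change was -0.65 (SE 0.14) against WT (limma, adjusted p 0.00917) and -0.55 against Crebbp-KO (adjusted p 0.0450). The gene lies at chr13:22040636-22041362, with 330 bases after the hairpin shown above. Its neighbours did not pass the test. Hist1h2ag, whose start is 1582 bases away on the same strand, stood at 14.8 ± 3.62 in WT and at 17.5, 6.39 and 7.68 in p300-KO_18, p300-KO_287 and p300-KO_289 (log2 fold change -0.55, limma adjusted p 0.422). Hist1h2bj, 1852 bases away on the other strand, stood at 73.0 ± 6.30 in WT and at 117.9, 54.3 and 81.9 in these libraries (0.15, adjusted p 0.752).

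Hist3h2ba, an H2B gene of the small cluster on chromosome 11 (chr11:58948920-58949533), was 166.3 in WT_288, 162.8 in WT_46, 151.8 in WT_41, 130.9 in WT_7 and 146.6 in WT_4. The Ep300-KO libraries held 78.6, 92.7 and 102.4 and the Crebbp-KO libraries 159.3, 159.4 and 131.0, so Ep300-KO stood apart from both groups. The log2 fold change was -0.73 (SE 0.16) against WT (limma, adjusted p 0.00929) and -0.71 against Crebbp-KO (adjusted p 0.0232), and without p300-KO_18 these were -0.63 (adjusted p 0.0496) and -0.61 (adjusted p 0.0891). The H2A gene of that cluster, Hist3h2a, whose start is 5765 bases downstream, did not pass the test and stood at 254.1 ± 12.3 in WT, 336.0 ± 43.3 in Crebbp-KO and 303.3 ± 48.8 in Ep300-KO. Its exons overlap Trim17 and are hard to assign without strand.

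Exact two-sided permutation tests of the group means gave p = 0.0179 for H1fx, H2afv, H2afx, Hist1h4i and Hist3h2ba in Ep300-KO against WT, the smallest that 5 against 3 libraries allow. Hist1h2bc gave the same p but was higher, at 250.3, 254.1 and 295.6 in p300-KO_18, p300-KO_287 and p300-KO_289 against 189.1 to 234.2 in WT. Its log2 fold change of 0.34 did not pass limma's test (adjusted p 0.218). The permutation p was 0.0357 for H2afj, H2afz and the low Hist1h2bp, all lower in Ep300-KO. For Ep300-KO against Crebbp-KO no p below 0.1 is possible with 3 against 3 libraries.

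The direct comparison of the knockouts called 5 of 70 genes, all lower in Ep300-KO, against 4.79% of all tested genes called lower (limma). They were H1fx, H2afx, H2afz, Hist1h4i and Hist3h2ba, whose values are given above. Without p300-KO_18, 2 of them were called, H1fx and Hist1h4i, against 2.7% of all tested genes. The call was kept in 23 of 23 other settings for H1fx, in 16 for H2afz and Hist3h2ba, in 13 for Hist1h4i and in 7 for H2afx. Against WT, H1fx, H2afv and Hist1h4i were kept in all 23, and H2afx and Hist3h2ba in 21.

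No histone gene was called in Crebbp-KO against WT, 0 of 70, while 8.36% of all tested genes were called in either direction (limma). At an unadjusted p below 0.05 there were 6 genes, against 22.6% of all tested genes (Hist3h2a, Hist1h2bg, Hist1h2bp, Hist1h3h, H2afy and H2afv, named after their values were seen). With edgeR 0 were called, against 8.01% of all tested genes. DESeq2 called 2, H2afv and Hist3h2a, against 12.4%. Hist3h2a was 239.5 to 267.9 in WT and 362.0, 360.0 and 286.0 in CBP-KO_1, CBP-KO_53 and CBP-KO_55, with a log2 fold change at 0.40 and an adjusted p of 0.0895 (limma). Hist1h2bp was 16.4 to 30.9 in WT and 0, 10.8 and 6.55 in the Crebbp-KO libraries, which gave a log2 fold change of -2.33 at a low level and an adjusted p of 0.0676 (limma). It was low in Ep300-KO too, at 6.55, 2.40 and 12.8 (adjusted p 0.164). The median log2 fold change was 0.18 over the replication-dependent genes, of which 41 of 59 were higher, and 0.07 over the variants, against 0.01 over all tested genes. The replication-dependent sum was 6209, 6900 and 6293 in CBP-KO_1, CBP-KO_53 and CBP-KO_55, or 105.1% of WT.

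Most replication-dependent genes were high in the same Ep300-KO library. Their sum was 7587, 4656 and 5265 in p300-KO_18, p300-KO_287 and p300-KO_289: the first was above and the other two below all WT and all Crebbp-KO libraries. p300-KO_18 was the highest of all 11 libraries for 34 of 59 replication-dependent genes (57.6%), for 0 of 11 variants and for 7.94% of all tested genes. The median ratio of p300-KO_18 to the mean of p300-KO_287 and p300-KO_289 was 1.997 for replication-dependent genes, 1.01 for variants and 0.998 for all tested genes. Per type this median ratio was 1.83 for H1, 2.52 for H2A, 1.74 for H2B, 2.25 for H3 and 2.21 for H4. It was 1.82 for genes with 100 bases or more after the hairpin, 2.17 for those with fewer and 2.07 for those without the pattern.

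**Figure D4:**
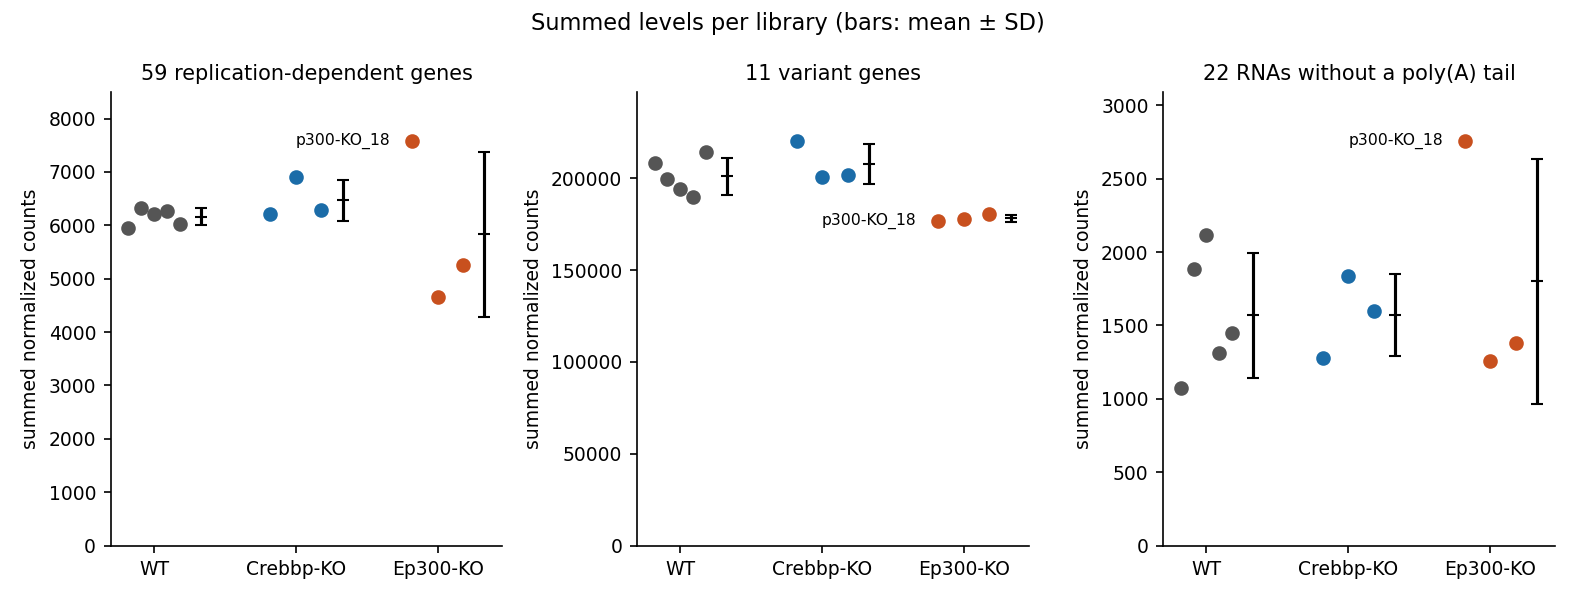
Summed normalized counts per library of the replication-dependent histone genes, the variant histone genes and 22 RNAs without a poly(A) tail, with mean ± SD per group (WT n = 5, Crebbp-KO n = 3, Ep300-KO n = 3). p300-KO_18 is the highest library in the outer panels, at 7587 and 2759, and lies with the other Ep300-KO libraries, below WT, in the middle one.

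RNAs made without a poly(A) tail were also summed, as a sign of library selection. The sum of 22 of them was 2759, 1259 and 1381 in p300-KO_18, p300-KO_287 and p300-KO_289, against 1077 to 2116 in WT and 1279 to 1834 in Crebbp-KO. Its largest part was Rn7sk, the 7SK RNA that holds a transcription elongation factor inactive, at 1803 in p300-KO_18 and 553.2 to 1089 in the other 10 libraries. Without Rn7sk the sum was 956.0 in p300-KO_18, below the 1028 of WT_41 and above the 523.5 to 859.7 of the other 9 libraries. The part of library selection, or of the mixed sex-linked transcripts of p300-KO_18, in its high replication-dependent counts was not tested.

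Group values of the replication-dependent class depended on this library. With it, the Ep300-KO sum was 94.8% of WT, and without it 80.6%. By type the percentages with and without p300-KO_18 were 97.6 and 83.8 for H1, 112.9 and 91.0 for H2A, 94.4 and 84.3 for H2B, 114.8 and 84.8 for H3 and 78.5 and 68.0 for H4. H4, of whose counts Hist1h4i made up most, was lowest in both, and the class without Hist1h4i stood at 101.5% and 85.2%. Without p300-KO_18 the median log2 fold change against WT was -0.31 and 48 of 59 replication-dependent genes were lower, while variants hardly moved, from -0.17 to -0.18. The genes called lower were then 5 of 70 (limma), against 3.95% of all tested genes, namely H1fx, H2afv, Hist1h4i, Hist3h2ba and Hist1h1e. Hist1h1e, which encodes the linker histone H1.4, was 376.8, 379.5, 346.6, 420.2 and 312.0 in WT_4, WT_7, WT_41, WT_46 and WT_288. It was 424.9 in p300-KO_18 and 233.3 and 217.5 in p300-KO_287 and p300-KO_289, which is above all WT libraries in the first and below all in the other two. Its log2 fold change was -0.39 (limma, adjusted p 0.255) with all libraries and -0.69 (adjusted p 0.0256) without p300-KO_18. Exons of Hist1h2be overlap those of Hist1h1e, and without strand their reads are hard to assign. Hist1h1c, the H1.2 gene, showed no such split, with 654.8, 562.5 and 578.3 in the same libraries and 590.7 ± 57.7 in WT.

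**Figure D5:**
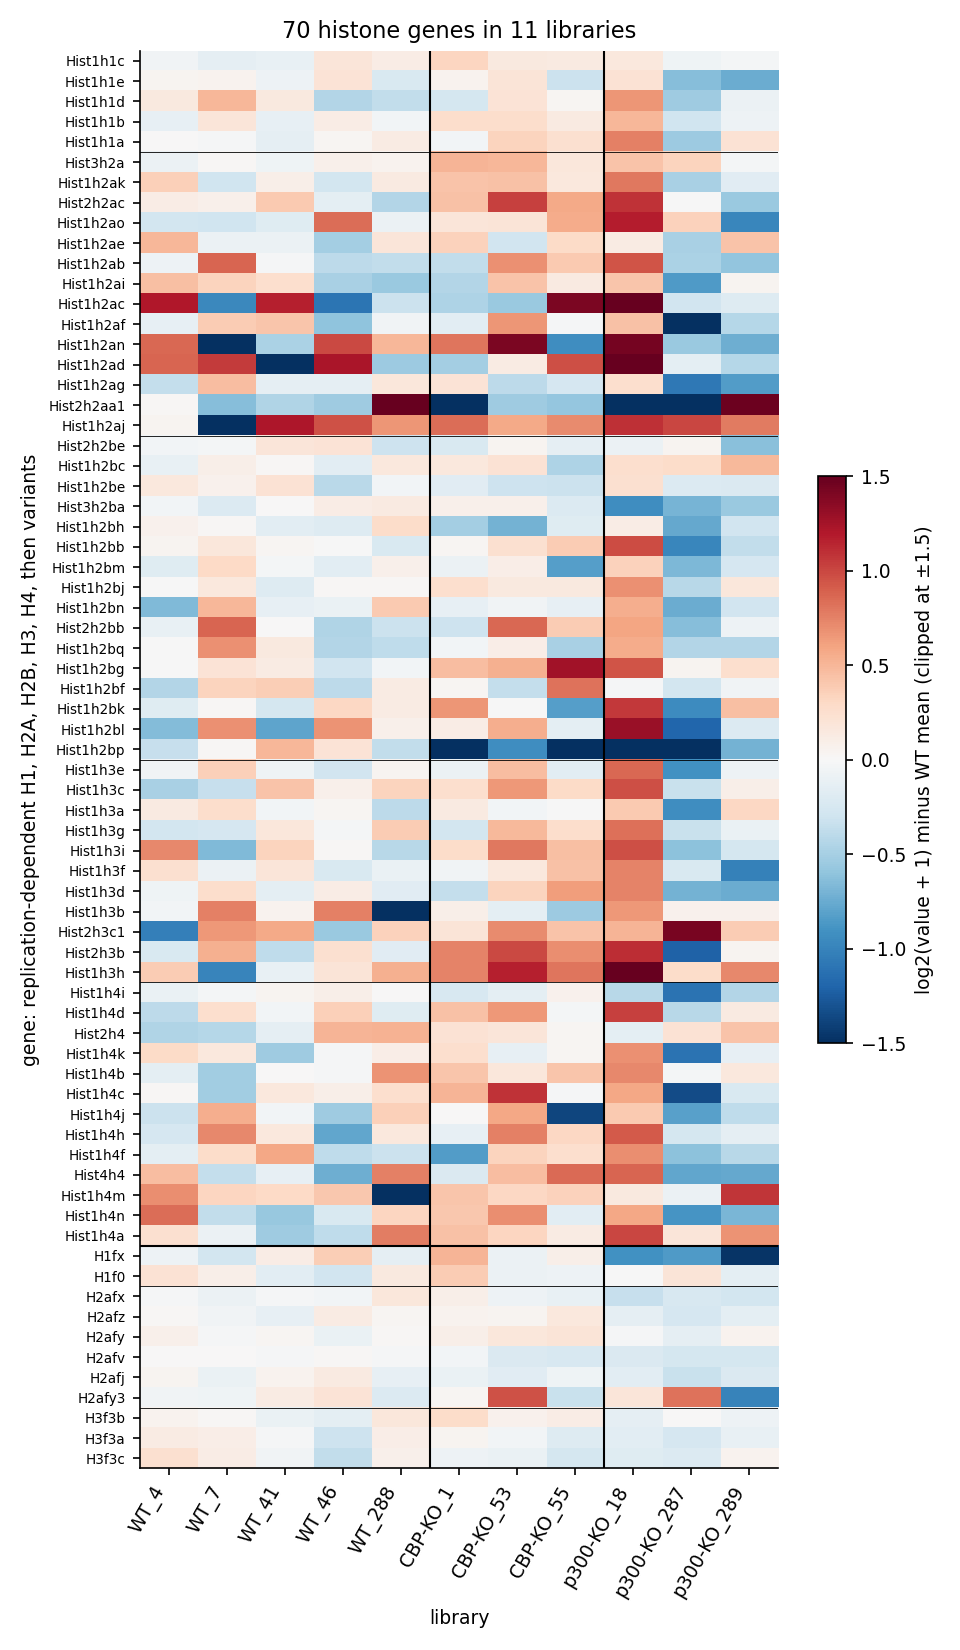
Log2(value + 1) minus the WT mean, clipped at ±1.5, for 70 histone genes (rows: replication-dependent H1, H2A, H2B, H3 and H4, then variants, each by falling WT level) in 11 libraries (columns). The column of p300-KO_18 is red over most replication-dependent rows and the next column, p300-KO_287, blue, while the H1fx row is blue in all 3 Ep300-KO libraries.

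Genes that make, process or deposit histones were read from lists chosen for their function. Of 20 genes of histone mRNA synthesis and 3′ end processing none rose and 1 fell in Ep300-KO against WT (limma). This is no more than the 6.09% of all tested genes that fell. None was called in Crebbp-KO against WT, where 8.36% of all tested genes were. The 1 that fell was Slbp, whose protein binds the hairpin and carries histone mRNA through its life. It was 19855 in WT_288, 17897 in WT_46, 17147 in WT_41, 18520 in WT_7 and 19612 in WT_4, and 15308, 14737 and 17107 in p300-KO_18, p300-KO_287 and p300-KO_289, so all of these were below WT. Its log2 fold change was -0.24 (limma, adjusted p 0.0266) against WT and -0.27 (adjusted p 0.0313) against Crebbp-KO, and neither call held without p300-KO_18 (adjusted p 0.0953 and 0.0972). In the direct comparison Cpsf2, Cstf2 and Eri1 fell as well, by 0.33, 0.23 and 0.24 on the log2 scale, so that 4 of 20 fell, against 4.79% of all tested genes, and without p300-KO_18 only Cpsf2 did (adjusted p 0.0498). Npat, the coactivator of the replication-dependent genes, did not pass the test, at 6092 ± 375.4 in WT and 6139 ± 347.8 in Ep300-KO.

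Of 35 histone chaperones, which carry histones to DNA, 5 fell and none rose in Ep300-KO against WT (limma), against 6.09% of all tested genes that fell. Without p300-KO_18 the count was 4, with Hira lost (adjusted p 0.0885), against 3.95%. Chaf1b, a subunit of the CAF-1 complex that loads H3 and H4 behind the replication fork, fell most, from 6029 ± 215.1 in WT to 4445 ± 650.9 (log2 fold change -0.45, adjusted p 0.00744). Asf1b, which hands H3 and H4 to CAF-1, fell by 0.26 and Mms22l by 0.29 on the log2 scale. Hira, which deposits H3.3, and Nap1l1, a carrier of H2A and H2B, fell by 0.22 and 0.23. In Crebbp-KO 1 of the 35 rose, Anp32e, which removes H2A.Z from chromatin, beside 574 of all 16515 tested genes. It stood at 41014 ± 2836 in WT and 47757 ± 1495 in Crebbp-KO (limma, log2 fold change 0.22, adjusted p 0.0417, or 0.0575 in the fit without p300-KO_18). The direct comparison called 4 of the 35 lower in Ep300-KO and none higher, against 4.79% of all tested genes: Mms22l, Chaf1b, Anp32e and Asf1a. Without p300-KO_18, Anp32e was lost (adjusted p 0.0596).

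Of 40 genes of S phase and DNA replication 15 fell in Ep300-KO against WT, none rose and 25 did not pass (limma), against 6.09% of all tested genes that fell. The median log2 fold change of the 40 was -0.19. Without p300-KO_18, 10 of the 40 fell, against 3.95%. Pold1, the catalytic subunit of a replicative polymerase, fell by 0.43, Cdt1, which loads the replicative helicase, by 0.40 and Rfc3, part of the clamp loader, by 0.37 on the log2 scale. The summed level of the 40 was 657413, 577899 and 685200 in p300-KO_18, p300-KO_287 and p300-KO_289, below all WT libraries (700265 to 791116). In Crebbp-KO 1 of the 40 rose, Ccne2, and 3 fell (Rfc2, Pold1 and Cdt1). Of all 16515 tested genes 574 rose and 806 fell in that comparison. Of 20 genes of G2 and mitosis none was called in Ep300-KO against WT, where 11.9% of all tested genes were. In Crebbp-KO 1 of the 20 rose, Ccnb2, beside 574 of all 16515 tested genes. The part of the S phase levels in the fall of single histone genes was not tested.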

How the data were processed

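RNA libraries of 11 samples (TruSeq RNA v2, an unstranded kit, per the labels' protocols) were analysed from 1 deposited table. Its values are a signal, gene counts scaled by the authors with a single DESeq2 size factor per column, as the deposited file's name and its steps show. CASAVA 1.8, HISAT2, featureCounts, DESeq2 and mm10 are named in the submitters' processing notes, while settings, including those for multi-mapped reads, are not given in the sources used here. Whole reads came out for 100% of values (tolerance 1e-06). The 16515 genes whose mean reached 10 were tested with limma 3.58.1 (R 4.3.3) with a variance trend on log2(value + 1), 1 mean per group, two-sided, with Benjamini-Hochberg adjustment over all 16515 genes at 0.05. Fold changes on this scale are understated for low genes. The procedure was tested on simulated data. Positions and exons came from GENCODE and promoters from RefSeq (GRCm38.p6).

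Members, lists and tests were chosen with earlier results of these data known, so no list test was run. Named were all called members, the 3 rows on each side of the limit and up to 4 genes per list with the smallest p. Neighbours were added as context. Of the 3 members with the highest WT mean of each type and class, some are named and others left out. Further members are named where their sequence or values are described. The annotated pseudogenes are named only because they are members. The 23 alternatives changed pseudocount, filter, normalization, library weights, libraries and a sex term, or used edgeR 4.0.16 or DESeq2 1.42.0 on the recovered reads.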

Additional observations from a re-analysis of the deposited data

Results flagged for a closer look

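Each WT library was set against the other 4 for every member and for both class sums, 72 groups in all, of which chance alone is taken to mark about 1 in 20. In 5 of them 1 library stood apart from the rest. H2afx was 39756 in WT_288, with the nearest WT library at 34948. Hist1h2ab was 58.2 in WT_7 against 30.9 at most elsewhere, and Hist2h2bb was 100.3 in the same library against 54.3. Hist1h2ao was 65.7 in WT_46, with the next at 33.96. Hist2h2aa1 was 38.1 in WT_288 and 12.1 or less in the other WT libraries. The last 4 are replication-dependent genes at low counts, and WT_7 and WT_288 each stood apart for 2 genes. The groups of 3 are too small for this check.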

How the results depend on the processing

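No paired analysis was possible because no mouse number recurs between genotypes. In Crebbp-KO against WT no member was called, while 8.36% of all tested genes were. With a pseudocount of 5, 1 member was called (Hist1h2bp) and 8.34% of all genes. Library weights called 3 members and 16.5% of all genes, and DESeq2 called 2 members and 12.4%. A sex term without p300-KO_18 called 1 member and 7.91% of all genes. When 1 library was left out, 0 to 1 members were called, and 3.89% to 9.33% of all genes. In Ep300-KO against WT the count of 6 was 4 (without WT_46 and p300-KO_18) to 7 (DESeq2) under the alternatives run, and 5 to 6 without 1 library. The share of all genes called was 11.9% in the main fit, 8.25% without WT_46 and p300-KO_18 and 17.0% with DESeq2. Without 1 library it was 7.08% to 12.3%. In Ep300-KO against Crebbp-KO, 5 genes were called, beside 9.42% of all genes. They became 3 with quantile normalization (9.68% of all genes), 2 with only the 2 groups compared (8.66%) and 2 with a sex term without p300-KO_18 (5.53%). There were 3 with edgeR (9.23%) and 1 to 5 when 1 library was left out (4.51% to 11.8%). H1fx alone was called in each. The lowest count of 1 came without p300-KO_287, without CBP-KO_53 or without CBP-KO_1. The variant sum of Ep300-KO as a percentage of WT, 88.7, was 86.4 without its highest member and 87.4 to 90.1 without 1 library, lowest without WT_46 and highest without WT_288. The replication-dependent sum of Ep300-KO, 94.8% of WT, was 80.6% to 104.4% without 1 library, above WT without p300-KO_287 and also without its highest member (101.5%). No called member changed direction in these settings. The causes of these shifts were not tested. Groups of 3, poly(A) selection, shared reads of near-identical genes and unstranded counts limit the values of single replication-dependent genes; their low counts allow no statement that an uncalled gene did not change.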
